A study of Mus musculus with 10 samples.

Results

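Regulatory T cells are CD4+ T cells that restrain other immune cells, and their lineage factor is Foxp3. The 8 genes described here are Foxp3, Il2ra, Ikzf2, Ikzf4, Ccr8, Tnfrsf18, Tnfrsf4 and Tnfrsf9. They were chosen by name as genes associated with regulatory T cells, and all 8 were found, each on a single line, among the 55020 lines of the deposited expression table. Their levels were compared between 5 vehicle and 5 GSK343 tumours, as they stand and relative to Cd3e, a subunit of the T cell receptor complex that serves as a measure of T cell RNA.

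Each tumour grew for 4 weeks under the skin of a C57/BL6 mouse from HEPA1-6 cells, a mouse hepatoma line. GSK343 inhibits EZH2, the methyltransferase of Polycomb repressive complex 2. Titles that begin with G name GSK343, and titles that begin with C were taken as vehicle by elimination. The treatment text shared by all 10 tumours names 2 antibodies, a control and one against asialo-GM1 that depletes natural killer cells. The labels do not say which tumour received which, so any effect of the antibody cannot be told apart from that of the drug. Neither the dose nor the age or sex of the mice is given in the sources used here. Levels are in FPKM, fragments scaled by transcript length and library size. They summed to between 574547 and 623397 FPKM per tumour. Read counts per tumour were not used, so no counting interval is given. Mitochondrial transcripts took 2.63% to 5.05% of that sum in 8 tumours, 7.17% in GSK343 replicate 3 and 7.11% in GSK343 replicate 5. The hepatoma label was matched by Afp (2085 ± 197 FPKM in vehicle tumours) and Alb (3129 ± 318 FPKM; SD, n = 5), while Cd3e measured 8.40 ± 4.91 FPKM.

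In these cells Foxp3 maintains a programme in which Il2ra, the high-affinity subunit of the interleukin-2 receptor, lets the cells capture interleukin-2 and signal through STAT5. Ikzf2 (Helios) and Ikzf4 (Eos) are Ikaros-family zinc-finger proteins that work beside Foxp3. Ccr8 is a chemokine receptor typical of regulatory T cells inside tumours. Tnfrsf18 (GITR), Tnfrsf4 (OX40) and Tnfrsf9 (4-1BB) are costimulatory receptors of the tumour necrosis factor receptor family. Only Foxp3 is close to specific for the lineage. Il2ra and the 3 costimulatory receptors also appear on activated conventional T cells and on natural killer cells. Whole tumours were sequenced, so a larger number of such cells and more RNA per cell cannot be told apart.

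Foxp3 and Il2ra were the 2 genes whose levels did not overlap between the groups, and the bases before their starts are shown for that reason. Promoter windows for 6 of the 8 genes came from RefSeq (GRCm38.p6, the mm10 build); Ikzf2 and Ikzf4 had no entry. Sequences run 5′ to 3′ on the plus strand, and capitals mark the letters GGAAA or their reverse complement, the core recognised by NFAT factors.
Foxp3, chrX:7579426-7579566: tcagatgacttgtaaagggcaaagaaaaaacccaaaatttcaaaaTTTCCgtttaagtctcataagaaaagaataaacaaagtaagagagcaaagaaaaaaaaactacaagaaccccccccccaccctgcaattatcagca
Il2ra, chr2:11642542-11642791: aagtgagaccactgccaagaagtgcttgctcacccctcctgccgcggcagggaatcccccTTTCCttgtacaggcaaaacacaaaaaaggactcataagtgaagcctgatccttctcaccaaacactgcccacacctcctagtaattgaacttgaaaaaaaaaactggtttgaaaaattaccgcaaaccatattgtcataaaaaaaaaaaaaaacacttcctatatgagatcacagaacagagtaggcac
The Foxp3 stretch stops where an annotated Foxp3 exon begins, and an exon of the noncoding gene Flicr covers it. On either strand of the 250 bases before the start, GGAAA occurred in 55.6% of all 32851 promoter windows and in 5 of these 6, all but Ccr8. The Foxp3 window also held TATAAA, present in 12.4% of windows. It begins 32 bases before the start in RefSeq and in the deposited table, but inside an exon of Foxp3 in GENCODE M21, where the gene has other coordinates. TTCNNNGAA, the STAT5 letters, was found in Tnfrsf18 alone of the 6, at 7.02% of all windows, and TGTGGT, the RUNX letters, in none of the 6, at 14.0%. In these 6 windows no match of one motif overlapped a match of another. Where the table held 2 windows for a gene (Foxp3 and Tnfrsf9), the one nearer to the deposited start was used, which for Tnfrsf9 lay 5593 bases away. The 6 windows held 1 to 6 CpG dinucleotides, against a median of 6 over all windows.

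All 8 genes had a higher mean in GSK343 tumours, but none passed the test across all lines. That test was limma on log2(FPKM + 1), with calls at a Benjamini-Hochberg adjusted p under 0.05. It covered the 14496 lines that averaged 1 FPKM or more. Of these, 0.069% were called higher after GSK343 and 0.0138% lower. Tnfrsf4, Tnfrsf9, Tnfrsf18 and Il2ra were among these lines, Il2ra only because of its level in GSK343 tumours. Foxp3, Ikzf2, Ikzf4 and Ccr8 lay below 1 FPKM on average and took their p from the same fit on the 20880 lines that averaged 0.1 FPKM or more, where 0.0287% were called higher and 0.00479% lower. At an unadjusted p under 0.05 in limma, 7 of the 8 genes were higher, all but Ikzf2. Of all lines, 10.7% were higher at that level in the first fit and 10.5% in the second. By an exact two-sided permutation test of each gene, 5 of 8 had an unadjusted p under 0.05 and the higher mean in GSK343 tumours. The same test gave that result for 8.6% of the 14496 lines and 8.72% of the 20880. The smallest p that this test allows is 0.00794.

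Foxp3 showed the greatest fold difference of the 8 (ENSMUSG00000039521.12, mm10 chromosome X, 7579676 to 7595243, plus strand). Its level was 0.0969, 0.206, 0.234, 0.184 and 0.324 FPKM in vehicle replicates 1, 2, 3, 5 and 6. It was 1.29, 0.937, 1.60, 0.379 and 1.24 FPKM in GSK343 replicates 1 to 5. Every GSK343 tumour lay above every vehicle tumour, although GSK343 replicate 4 was above the highest vehicle tumour by only 0.0548 FPKM. The means were 0.209 ± 0.0822 and 1.09 ± 0.460 FPKM (SD, n = 5), a ratio of 5.21, without a call after adjustment (log2 fold change 0.76, SE 0.149, limma adjusted p = 0.160; exact permutation p = 0.00794). Without GSK343 replicate 4 the log2 fold change was 0.90 and the gene was called (limma adjusted p = 0.0205). Leaving out any other single tumour gave no call (limma adjusted p between 0.0762 and 0.383). Without GSK343 replicates 3 and 5 together the log2 fold change was 0.60 (limma adjusted p = 0.727). The pseudocount of 1 compresses the change of so weak a gene.

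Neighbouring genes share bases with Foxp3, and the strand setting of the authors' counting is not given in the sources used here. Ccdc22 runs in the opposite direction and shares 590 of the 4577 exon bases of Foxp3 in GENCODE M21. Vehicle tumours held 12.9 ± 1.002 FPKM of it and GSK343 tumours 11.5 ± 1.61 FPKM (SD, n = 5; limma adjusted p = 0.405), far above Foxp3 and with the lower mean after GSK343. The noncoding line Ppp1r3fos, which shares 853 exon bases with Foxp3, stayed at or under 0.221 FPKM in all 10 tumours. A second noncoding line, RP23-135F22.6, runs opposite to Foxp3 and shares 373 of its exon bases. It measured 0.786 ± 0.757 and 0.875 ± 0.650 FPKM (SD, n = 5) and up to 1.89 FPKM, in the range of Foxp3 itself, with the higher mean after GSK343. How far reads of these neighbours enter the Foxp3 values was not tested.

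Il2ra (ENSMUSG00000026770.5, chromosome 2, 11642807 to 11693193, plus strand) measured 0.284, 0.887, 0.718, 0.498 and 0.364 FPKM in vehicle replicates 1, 2, 3, 5 and 6. In GSK343 replicates 1 to 5 it measured 1.61, 0.919, 3.02, 0.985 and 2.73 FPKM. The groups did not overlap, but vehicle replicate 2 and GSK343 replicate 2 were 0.0320 FPKM apart, and GSK343 replicates 3 and 5 stood well above the other 3. Means were 0.550 ± 0.250 and 1.85 ± 0.975 FPKM (SD, n = 5; log2 fold change 0.83, SE 0.224, limma adjusted p = 0.191; exact permutation p = 0.00794). Without GSK343 replicates 3 and 5 the log2 fold change was 0.49 (limma adjusted p = 0.748). Complete separation of the groups, seen here for 2 of 8 genes, was found in the same direction for 1.51% of the 20880 lines and for 1.42% of the 14496 lines.

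The Ikaros-family partners had the smallest log2 fold changes of the 8, with a pseudocount of 1 and also with one of 0.1 (0.39 for Ikzf2 and 0.51 for Ikzf4). The pseudocount of 1 compresses every gene below 1 FPKM, and the ratio of the means of Ikzf4 (1.62) was close to that of the abundant Tnfrsf9 (1.63). Ikzf2 (chromosome 1, 69531214 to 69687245, minus strand) measured 0.393, 0.878, 0.625, 0.435 and 0.523 FPKM in vehicle replicates 1, 2, 3, 5 and 6. It measured 0.758, 0.675, 0.996, 0.527 and 0.883 FPKM in GSK343 replicates 1 to 5. The groups overlapped over most of their range, with vehicle replicate 2 above 3 of the GSK343 tumours (0.571 ± 0.194 against 0.768 ± 0.182 FPKM, SD, n = 5; log2 fold change 0.17, SE 0.0998, limma adjusted p = 0.421). Ikzf4 (chromosome 10, 128630843 to 128645991, minus strand) ranged from 0.124 to 0.297 FPKM in vehicle and from 0.246 to 0.4997 FPKM in GSK343 tumours (medians 0.242 and 0.307; log2 fold change 0.15, SE 0.0668, limma adjusted p = 0.308).

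Ccr8 (chromosome 9, 120092114 to 120094906, plus strand) measured 0.174, 0.977, 0.650, 0.231 and 0.317 FPKM in vehicle replicates 1, 2, 3, 5 and 6. It measured 0.950, 0.588, 1.46, 0.521 and 1.41 FPKM in GSK343 replicates 1 to 5. Vehicle replicates 2 and 3 lay within the GSK343 range (0.470 ± 0.338 against 0.985 ± 0.440 FPKM, SD, n = 5; log2 fold change 0.43, SE 0.183, limma adjusted p = 0.289). The chemokines that bind this receptor in mice, Ccl1 and Ccl8, were not called either. Ccl1 measured 2.44 ± 2.39 and 6.21 ± 3.58 FPKM (limma adjusted p = 0.225). Ccl8, also a product of macrophages, measured 248 ± 363 and 414 ± 315 FPKM (limma adjusted p = 0.426), with 896 FPKM in vehicle replicate 2 and at most 111 FPKM in the other vehicle tumours.

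The costimulatory receptors were the most abundant of the 8. Tnfrsf4 (chromosome 4, 156013843 to 156016612, plus strand) measured 2.64, 7.36, 3.66, 2.51 and 2.79 FPKM in vehicle replicates 1, 2, 3, 5 and 6. It measured 7.03, 5.53, 11.3, 5.60 and 10.5 FPKM in GSK343 replicates 1 to 5. Vehicle replicate 2 alone reached the GSK343 range. Means were 3.79 ± 2.05 and 7.999 ± 2.75 FPKM (SD, n = 5; log2 fold change 0.94, SE 0.270, limma adjusted p = 0.192; exact permutation p = 0.0317), and without vehicle replicate 2 the log2 fold change was 1.16 and the gene was called (limma adjusted p = 0.0465).

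Tnfrsf18 begins 9551 bases after the end of Tnfrsf4 (chromosome 4, 156026164 to 156028895, plus strand). It ranged from 3.41 to 6.90 FPKM in vehicle (median 3.85) and from 5.82 to 11.1 FPKM in GSK343 tumours (median 7.22), and vehicle replicate 2 again was the one vehicle tumour within the GSK343 range (log2 fold change 0.69, SE 0.199, limma adjusted p = 0.192; exact permutation p = 0.0238). An antisense line covers 414 of its 1524 exon bases at 0.936 ± 0.442 and 1.38 ± 0.147 FPKM. The ratio of Tnfrsf4 to Tnfrsf18 lay between 0.686 and 1.24 in the 10 tumours.

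Tnfrsf9 (chromosome 4, 150914562 to 150946102, plus strand) had the highest level of the 8 in each of the 10 tumours. It measured 10.02, 12.9, 9.55, 7.84 and 6.42 FPKM in vehicle replicates 1, 2, 3, 5 and 6, and 15.6, 8.50, 21.8, 14.7 and 15.5 FPKM in GSK343 replicates 1 to 5. GSK343 replicate 2 lay within the vehicle range and the other 4 lay above it (9.35 ± 2.44 against 15.2 ± 4.72 FPKM, SD, n = 5; log2 fold change 0.63, SE 0.227, limma adjusted p = 0.218; exact permutation p = 0.0397).

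**Figure D1:**
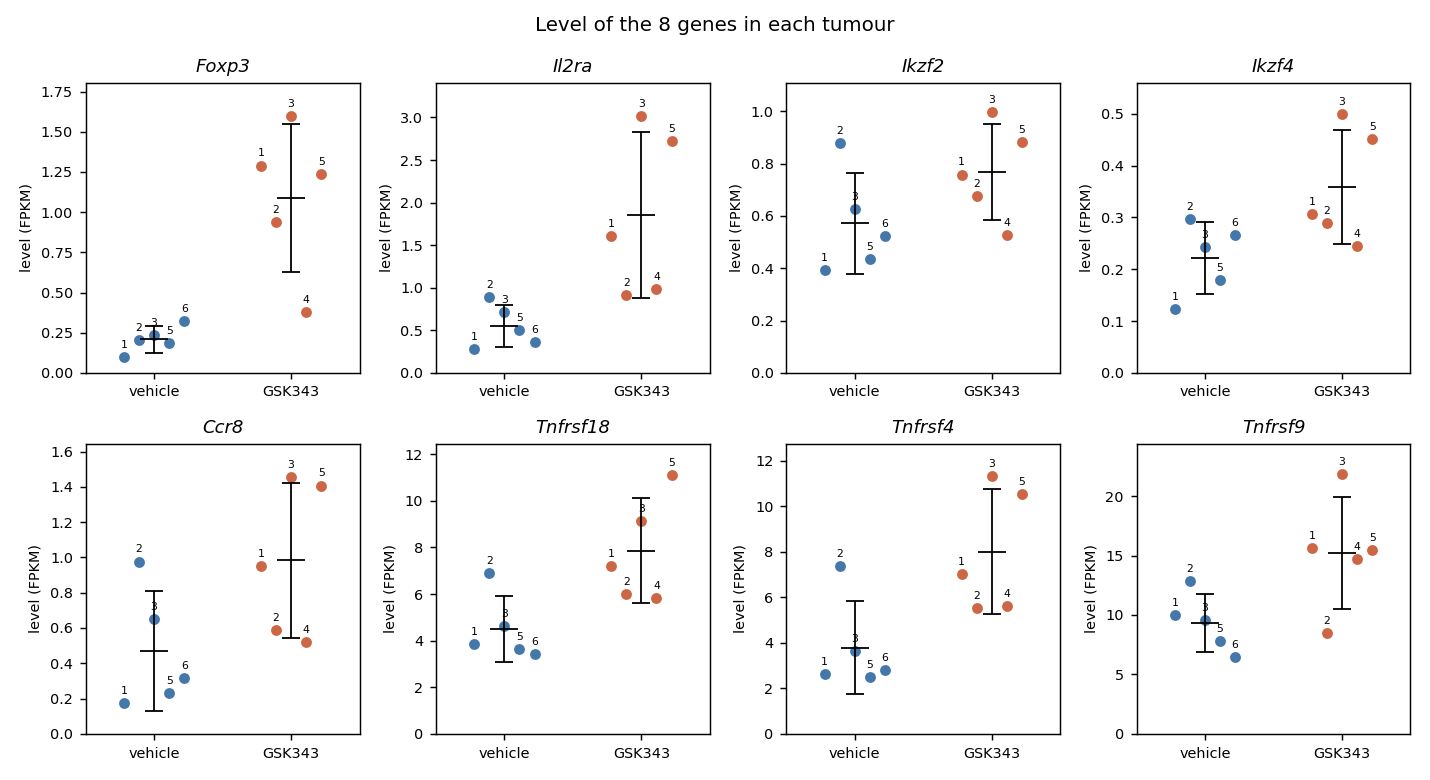
Level in FPKM (y axis, linear, from 0) of each of the 8 genes in the 5 vehicle (blue) and 5 GSK343 (orange) tumours; small numbers are replicate numbers, and black bars give the mean and 1 SD. Foxp3 and Il2ra do not overlap between the groups, and vehicle replicate 2 is the highest vehicle tumour for every gene but Foxp3.

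GSK343 replicates 3 and 5 had the highest mitochondrial shares of the 10 tumours, and 1 of them was the highest GSK343 tumour for each of the 8 genes. Without both, the log2 fold change was 0.60 for Foxp3, 0.63 for Tnfrsf4, 0.45 for Tnfrsf18 and 0.42 for Tnfrsf9. It was 0.22 for Ccr8, 0.08 for Ikzf2 and 0.07 for Ikzf4. The limma adjusted p of these genes lay between 0.727 and 0.891.

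The order of the mean levels differed between the groups, mainly among the 5 weaker genes. In vehicle tumours the means ran Tnfrsf9, Tnfrsf18, Tnfrsf4, Ikzf2, Il2ra, Ccr8, Ikzf4 and Foxp3. In GSK343 tumours they ran Tnfrsf9, Tnfrsf4, Tnfrsf18, Il2ra, Foxp3, Ccr8, Ikzf2 and Ikzf4. Several neighbours were not separated: Ikzf2 exceeded Il2ra in 2 of 5 vehicle tumours, Ikzf4 exceeded Foxp3 in 3 of 5, and in GSK343 tumours Foxp3 exceeded Ccr8 in 3 of 5. By contrast, the 3 costimulatory receptors exceeded the other 5 genes in every tumour.

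T cell RNA itself varied between the tumours. Cd3e measured 6.54, 17.0, 7.41, 4.45 and 6.66 FPKM in vehicle replicates 1, 2, 3, 5 and 6, and 11.4, 9.13, 21.9, 9.37 and 14.0 FPKM in GSK343 replicates 1 to 5. Vehicle replicate 2 exceeded 4 of the 5 GSK343 tumours (8.40 ± 4.91 against 13.2 ± 5.27 FPKM, SD, n = 5; log2 fold change 0.65, SE 0.316, limma adjusted p = 0.317; exact permutation p = 0.111). That tumour was also the highest vehicle tumour for 7 of the 8 genes, and GSK343 replicate 3, highest for Cd3e, was the highest GSK343 tumour for 7 of 8. Foxp3 was the exception in vehicle replicate 2, where its level was the median of the 5 vehicle tumours.

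Relative to Cd3e, the 8 genes divided. Foxp3, Il2ra, Tnfrsf4, Ccr8 and Tnfrsf18 had higher mean ratios in GSK343 tumours, from 2.81 times the vehicle mean for Foxp3 to 1.06 times for Tnfrsf18. Ikzf2, Ikzf4 and Tnfrsf9 had lower ones, at 0.819, 0.936 and 0.946 times. The ratio of Foxp3 to Cd3e (FPKM over FPKM) was 0.0148, 0.0121, 0.0316, 0.0413 and 0.0486 in vehicle replicates 1, 2, 3, 5 and 6. It was 0.113, 0.103, 0.0728, 0.0404 and 0.0885 in GSK343 replicates 1 to 5. All GSK343 tumours but replicate 4 lay above the vehicle range, and vehicle replicate 2, rich in Cd3e, had the lowest ratio of the 10. The mean ratio was 0.0297 ± 0.0160 in vehicle and 0.0835 ± 0.0285 in GSK343 tumours (SD, n = 5; exact permutation p = 0.0317 on the log2 ratio).

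The same comparison was made over all lines by subtracting log2(Cd3e FPKM + 0.1) from log2(FPKM + 0.1) in each tumour. None of the 8 genes was called by limma. Of the 20880 lines, 0.0335% were called higher and 0.0239% lower. Foxp3 was 1.15 higher on this log2 scale (SE 0.489, limma adjusted p = 0.252), and it was the one gene of the 8 with an unadjusted p under 0.05 in limma. At that level 0.618% of lines were higher and 14.9% lower. The median line was 0.71 lower, because Cd3e had the higher mean in GSK343 tumours and is the denominator of every line. No gene of the 8 was without overlap between the groups in its ratio, against 0.0814% of lines without overlap and higher and 0.254% without overlap and lower. All lines share the spread of Cd3e, so their values are not independent.

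Il2ra had ratios of 0.0434 to 0.112 in vehicle (mean 0.0718 ± 0.0305) and 0.101 to 0.195 in GSK343 tumours (0.136 ± 0.0377; SD, n = 5), with vehicle replicate 5 inside the GSK343 range (log2 difference 0.80, limma adjusted p = 0.252; exact permutation p = 0.0317). Tnfrsf4 had ratios of 0.404, 0.434, 0.493, 0.565 and 0.419 in vehicle replicates 1, 2, 3, 5 and 6 and of 0.616, 0.606, 0.516, 0.597 and 0.751 in GSK343 replicates 1 to 5. Only GSK343 replicate 3 fell below the highest vehicle tumour (log2 difference 0.40, limma adjusted p = 0.430; exact permutation p = 0.0159). These 3 genes were those with an unadjusted exact p under 0.05 among the 8 ratios tested, all higher. Over the 20880 lines that test gave 0.359% higher and 5.62% lower.

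The other 5 ratios overlapped broadly. Ccr8 had mean ratios of 0.0543 ± 0.0221 and 0.0740 ± 0.0179 (exact permutation p = 0.230, n = 5). Tnfrsf18 had 0.591 ± 0.154 and 0.625 ± 0.135 (exact permutation p = 0.683, n = 5). Tnfrsf9 had 1.26 ± 0.408 and 1.19 ± 0.267 (exact permutation p = 0.889, n = 5), and exceeded Cd3e itself in 6 of the 10 tumours. For the Ikaros-family genes the ratios were 0.0745 ± 0.0186 and 0.0610 ± 0.0108 for Ikzf2 (exact permutation p = 0.183, n = 5), and 0.0299 ± 0.0111 and 0.0280 ± 0.00398 for Ikzf4 (exact permutation p = 0.476, n = 5).

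**Figure D2:**
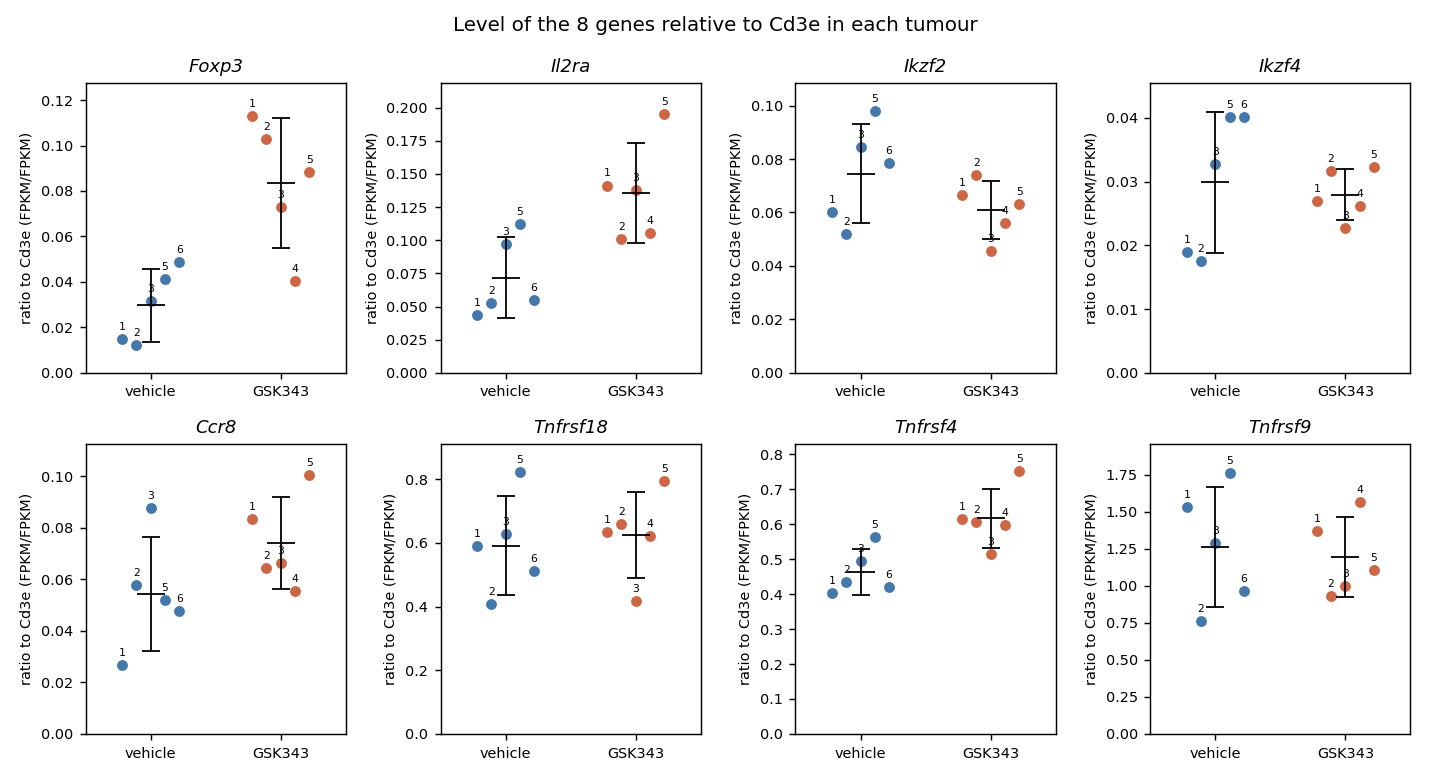
Ratio of each gene's FPKM to the Cd3e FPKM of the same tumour (y axis, linear, from 0) in 5 vehicle (blue) and 5 GSK343 (orange) tumours; numbers are replicate numbers, and black bars give the mean and 1 SD. For Foxp3, 4 of 5 GSK343 tumours lie above all vehicle tumours, while Tnfrsf18, Tnfrsf9, Ikzf2 and Ikzf4 overlap.

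The result for Foxp3 depended on which T cell gene it was set against. Against Lck, a T cell kinase, its ratio was 0.0286 ± 0.0157 in vehicle and 0.0857 ± 0.0332 in GSK343 tumours (n = 5, exact permutation p = 0.0159). Against the sum of Cd3d, Cd3e and Cd3g it was 0.00761 ± 0.00456 and 0.0199 ± 0.00852 (n = 5, exact permutation p = 0.0556). Against Cd4, the coreceptor of the T cells from which this lineage comes, it was 0.135 ± 0.0648 and 0.247 ± 0.0987 (n = 5, exact permutation p = 0.222). The groups overlapped in each of these ratios, where GSK343 replicate 4 lay below vehicle replicate 6. Cd4 itself measured 1.76 ± 0.917 and 4.65 ± 2.20 FPKM (limma adjusted p = 0.192). These tests against Lck, Cd4 and the summed genes were added after the data were seen.

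Foxp3 followed Cd3e from tumour to tumour less closely than did the other 7 genes, a ranking that was not tested. Across the 10 tumours, on log2(FPKM + 0.1), Tnfrsf4 had a Pearson r of 0.938 with Cd3e (permutation p = 0.0001) and a Spearman rho of 0.988 (permutation p = 2e-05). Without vehicle replicate 5 and GSK343 replicate 3, the tumours farthest from the median of Cd3e, r was 0.913, and after each group's mean was subtracted it was 0.950. An r as high as that over 10 tumours was reached by 0.359% of the 14496 lines. Foxp3 had an r of 0.641 (permutation p = 0.0493) and a rho of 0.697 (permutation p = 0.0309). Its r was 0.419 without those tumours and 0.406 within groups, and 12.1% of lines reached an r as high. The relation for Foxp3 was thus weaker but still positive in both cases, a change that was not tested. The other 6 genes had r between 0.815 (Il2ra) and 0.919 (Ikzf2), and between 0.693 and 0.883 without the 2 tumours. In all, 8 such relations were computed, and their p-values are not adjusted. Among the 8 genes, all 28 pairs had a positive r within groups, from 0.0909 to 0.970 with a median of 0.788.

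**Figure D3:**
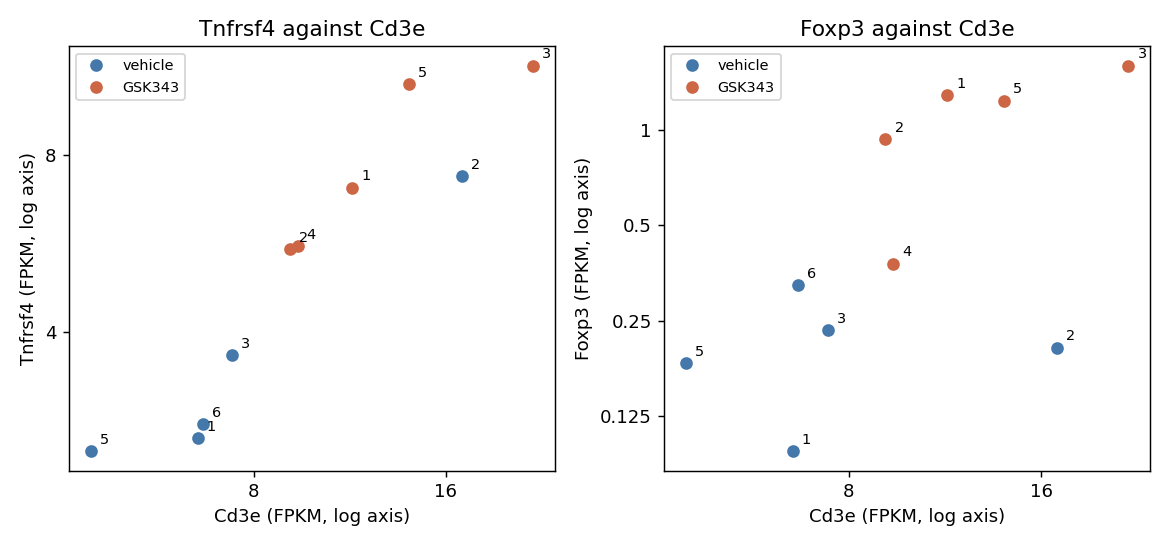
Level of Tnfrsf4 (left) and Foxp3 (right) against Cd3e in the 10 tumours, in FPKM with both axes on a log2 scale; points are tumours, blue for vehicle and orange for GSK343, with replicate numbers. Tnfrsf4 is higher where Cd3e is higher in both groups (r = 0.938), while Foxp3 in vehicle replicate 2 stays at 0.206 FPKM at a Cd3e level of 17.0 FPKM.

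The 5 named genes with a pattern most like that of Foxp3 over the 10 tumours, by Pearson r of log2(FPKM + 1) among 11400 candidates, were Far1 (r = 0.948), Fam188a (0.939), Picalm (0.934), Skap2 (0.932) and Dock11 (0.928). Far1, which makes fatty alcohols in peroxisomes, measured 0.654 ± 0.130 and 1.83 ± 0.846 FPKM (n = 5, limma adjusted p = 0.192), and its lowest GSK343 value of 0.546 FPKM lay within the vehicle range. Picalm, a clathrin adaptor, measured 64.3 ± 2.42 and 76.7 ± 9.55 FPKM (n = 5, limma adjusted p = 0.220). None of the 5 was called, and none is in the gene lists used here.

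Genes that act with these 8 were read from lists that were chosen with earlier results of these data known. None of the list members passed the adjusted threshold in either direction. For comparison, the median log2 fold change over all 14496 lines was -0.01, and 47.6% of lines were above 0. At an unadjusted p under 0.05 in limma, 10.7% of these lines were higher, the share to set beside the counts of each list. Among suppressive and surface molecules of regulatory T cells, 16 of 22 genes were tested, 14 had a higher mean, 6 reached an unadjusted p under 0.05 in limma (all higher) and the median log2 fold change was 0.47. Ctla4, an inhibitory receptor whose expression Foxp3 supports, has 2 lines, and the one with the higher mean measured 2.58, 8.001, 3.53, 2.33 and 2.22 FPKM in vehicle replicates 1, 2, 3, 5 and 6 and 6.75, 4.93, 13.6, 4.60 and 12.1 FPKM in GSK343 replicates 1 to 5 (limma adjusted p = 0.213). Vehicle replicate 2 was again the vehicle tumour inside the GSK343 range. Entpd1, the ectonucleotidase CD39, measured 6.61 ± 4.26 and 14.4 ± 3.99 FPKM (limma adjusted p = 0.192), and Nrp1, a surface marker of thymus-derived regulatory T cells that other cells also carry, 5.31 ± 0.685 and 7.42 ± 1.16 FPKM (limma adjusted p = 0.191). Klrg1, a receptor of effector cells, did not overlap between the groups at 0.551 ± 0.222 and 1.23 ± 0.341 FPKM (limma adjusted p = 0.215). Klrg1 averaged under 1 FPKM, so its p came from the 0.1 FPKM fit and the counts above leave it out. Il10, a suppressive cytokine, measured 1.11 ± 0.898 and 1.14 ± 0.532 FPKM (limma adjusted p = 0.922), and Tgfb1 81.8 ± 6.52 and 78.4 ± 8.81 FPKM (limma adjusted p = 0.733); both were chosen after their values were seen.

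Among transcription factors that act with or upstream of Foxp3, the median difference was small. Of 19 genes 15 were tested, 9 had a higher mean, 3 of them at an unadjusted p under 0.05 in limma, and the median log2 fold change was 0.08. Rel, an NF-kappaB subunit that induces Foxp3, measured 1.15 ± 0.266 and 1.63 ± 0.208 FPKM (limma adjusted p = 0.218). Nfatc2 measured 0.572 ± 0.168 and 0.906 ± 0.146 FPKM (limma adjusted p = 0.224). It averaged under 1 FPKM, so its p came from the 0.1 FPKM fit and the counts above leave it out.

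In interleukin-2 signalling all 13 genes were tested and had a higher mean in GSK343 tumours (median log2 fold change 0.36), with 5 at an unadjusted p under 0.05 in limma. Il2rg, the common gamma chain, measured 22.4 ± 13.7 and 47.9 ± 18.3 FPKM (limma adjusted p = 0.202), and Il7r, the interleukin-7 receptor, 1.42 ± 0.944 and 3.98 ± 2.28 FPKM (limma adjusted p = 0.214). Il2, the cytokine itself, was listed at 0 in vehicle replicates 3 and 5 and at 3.70 to 4.69 FPKM in the other 8 tumours, so its group difference rests on those 2 entries.

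None of the ligands of the costimulatory receptors was called, and the means of Tnfsf4 and Tnfsf18 were lower in GSK343 tumours. Tnfsf4, the ligand of OX40, measured 14.3 ± 0.923 and 12.7 ± 1.80 FPKM (limma adjusted p = 0.381). Tnfsf18, the ligand of GITR, measured 0.418 ± 0.200 and 0.311 ± 0.258 FPKM (limma adjusted p = 0.685), and Tnfsf9, the ligand of 4-1BB, 1.05 ± 0.606 and 1.54 ± 0.442 FPKM (limma adjusted p = 0.377). Tnfsf18 averaged under 1 FPKM, so its p came from the 0.1 FPKM fit and the counts below leave it out. Over the list of ligands, adaptors and NF-kappaB targets, 10 of 11 genes were tested, and the median log2 fold change was 0.18. Of these, 8 had a log2 fold change above 0, 2 of them at an unadjusted p under 0.05 in limma. Traf3 was among the 8, although its mean FPKM was lower in GSK343 tumours (2.66 ± 1.48 in vehicle and 2.54 ± 0.377). Birc3, an inhibitor of apoptosis induced by NF-kappaB, did not overlap between the groups at 16.3 ± 2.35 and 21.96 ± 1.76 FPKM (limma adjusted p = 0.189), and Traf1 measured 5.85 ± 2.03 and 9.65 ± 2.93 FPKM (limma adjusted p = 0.215).

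Of the chemokines and receptors of regulatory T cell traffic, 9 of 13 were tested, all 9 had a higher mean, 4 at an unadjusted p under 0.05 in limma, and the median log2 fold change was 0.83. The smallest p of the 9 was that of the chemokine receptor Cxcr4, at 5.77 ± 1.41 and 9.82 ± 2.17 FPKM (limma adjusted p = 0.191). Ccl17 and Ccl22, ligands of the receptor Ccr4, are products of dendritic cells and macrophages. Ccl17 went from 15.3 ± 5.16 to 31.6 ± 11.6 FPKM (limma adjusted p = 0.191), with 3 GSK343 tumours above all vehicle tumours. Ccl22 averaged 3.55 ± 1.49 and 6.07 ± 1.81 FPKM (limma adjusted p = 0.252). Ccr4 itself lay at 0.0317 ± 0.0245 and 0.101 ± 0.0550 FPKM, below the lowest mean tested. Ccl22 and Ccr4 were chosen after their values were seen.

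**Figure D4:**
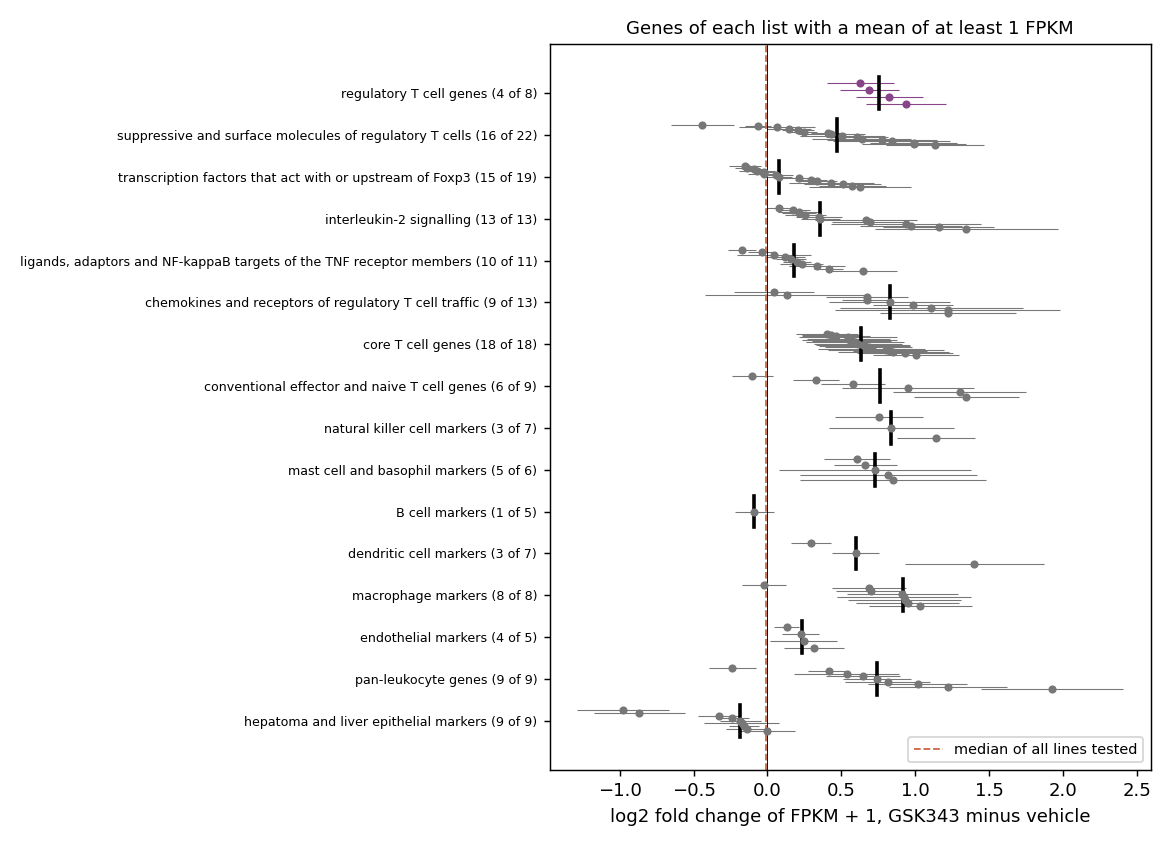
Log2 fold change of FPKM + 1 (x axis, GSK343 minus vehicle) of the genes in each list with a mean of at least 1 FPKM; points are genes with their standard error, black bars are list medians, the dashed line is the median of all 14496 lines, and numbers in brackets are genes tested of genes listed. The 4 of 8 regulatory T cell genes that passed this filter (purple: Il2ra, Tnfrsf4, Tnfrsf18 and Tnfrsf9) lie between 0.63 and 0.94. The core T cell genes, whose median is 0.63, run from 0.40 (Themis) to 1.01 (Cd4). Not shown are Foxp3 (0.76), Ccr8 (0.43), Ikzf2 (0.17) and Ikzf4 (0.15), which averaged under 1 FPKM.

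Genes of other leukocytes also had higher means in GSK343 tumours, and their part in the results was not tested. At an unadjusted p under 0.05 in limma, higher levels were found for 7 of 9 pan-leukocyte, 6 of 8 macrophage, 5 of 18 core T cell, 3 of 6 conventional T cell, 3 of 3 dendritic cell, 2 of 3 natural killer cell and 2 of 5 mast cell genes. Lower levels were found for 3 of 9 hepatoma and liver markers. Of all 14496 lines, 2547 reached that level, of which 1552 (10.7% of all lines) were higher and the rest lower. All 18 core T cell genes had a higher mean in GSK343 tumours (median log2 fold change 0.63), with summed levels of 57.5 to 191.8 FPKM in vehicle and 95.8 to 261 FPKM in GSK343 tumours. Natural killer cell markers (3 of 7 tested, all 3 with a higher mean) summed to 5.83 to 22.1 and 13.9 to 37.3 FPKM, with Klra8 listed at 0 in 3 tumours. Macrophage markers (7 of 8 with a higher mean) summed to 268 to 1144 and 634 to 1040 FPKM, and pan-leukocyte genes (8 of 9) to 287 to 798 and 562 to 948 FPKM. Dendritic cell markers (3 of 7 tested, all 3 with a higher mean) summed to 8.23 to 51.2 and 30.3 to 65.1 FPKM. Mast cell markers (5 of 6 tested, all 5 with a higher mean) summed to 21.8 to 79.0 and 13.4 to 160.2 FPKM. Of the B cell markers 1 of 5 was tested, with a log2 fold change of -0.09, and Ms4a1 was listed at 0 in 1 tumour. Endothelial markers (4 of 5 tested, all 4 with a higher mean) summed to 22.9 to 39.97 and 25.3 to 42.7 FPKM. Of 9 conventional effector and naive T cell genes 6 were tested and 5 had a higher mean (median 0.76). Hepatoma and liver markers had lower means in 9 of 9 cases (median -0.18), with sums of 6306 to 8444 and 5206 to 6541 FPKM.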

How the data were processed

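RNA of 10 tumours was measured by poly-A RNA sequencing, 5 per group. The authors deposited FPKM values, 1 per line and tumour; the table names no unit, and FPKM was inferred from the values and from the tools. The submitters' processing notes list the trimmer Trimmomatic 0.33, the aligner HISAT2 2.1.0 and the assembler and quantifier StringTie 1.3.3b, with the build mm10. How each was set, which annotation served and whether strand was used is not given in the sources used here. A listed 0 can be a failed estimate. A further 10 columns had no name and no values.

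Levels were tested with limma 3.58.1 (R 4.3.3) on log2(FPKM + 1) with an intensity trend at a mean of at least 1 FPKM, or 0.1 FPKM for genes below that. Ratios used a pseudocount of 0.1 and a mean of at least 0.1 FPKM. Adjustment was Benjamini-Hochberg over all lines, threshold 0.05, two-sided. Exact permutation tests used all 252 assignments of the tumours and are two-sided; correlations used 100000 permutations. The design text calls the tumours biological replicates. Fits were tested on simulated data. Gene overlaps came from GENCODE M21 and promoters from RefSeq.

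The 8 genes and the 15 other lists were chosen with earlier results of these data known. Genes named were the 8, Cd3e, fixed ligands, up to 3 per list by smallest p, the 5 most like Foxp3, and those said to be chosen later; Ctla4, Afp and Alb come from the marker lists. Alternatives covered filters, pseudocounts, scaling, the variance model, tumour weights, the denominator, a replicate block, summed lines and tumours left out. Plots used matplotlib 3.10.9. The summed level of the B cell markers is not reported here.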

Additional observations from a re-analysis of the deposited data

Results flagged for a closer look

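Of 34 groups of 5 tumours examined for a single distant value (levels of the 8 genes and Cd3e, and ratios of the 8 to Cd3e), 2 stood out, both in vehicle replicate 2. Chance flags about 1 in 20 such groups. Tnfrsf4 was 7.36 FPKM in that tumour, against 2.51 to 3.66 FPKM in the other vehicle tumours. Cd3e was 17.0 FPKM, against 4.45 to 7.41 FPKM in the others.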

How the results depend on the processing

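The 8 level differences kept their positive sign in all 22 alternatives each. With a pseudocount of 0.1 the log2 fold change was 1.87 for Foxp3, 1.52 for Il2ra and 1.02 for Ccr8; with quantile normalization it was 0.08 for Ikzf2 and 0.10 for Ikzf4. No gene was called in level except as follows: the number called was 0 to 1 when single tumours were left out, and 5 by the unadjusted exact test. Lines called numbered 7 with a mean of at least 0.1, 6 without a filter, 7 with median-of-ratios scaling, 7 with quantile normalization, 4 without GSK343 replicates 3 and 5, and 3 to 98 when single tumours were left out; the highest was without vehicle replicate 2. Same-numbered tumours did not deviate together (correlations -0.332 to 0.0349), and the main fits did not pair them. So few correlations cannot decide whether the tumours were paired. With the replicate block 2 lines and 0 of the 8 genes were called in level, and 52 lines and 0 of the 8 relative to Cd3e.

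Relative to Cd3e, 3 of the 8 passed the unadjusted exact test, all higher, and 4 were called against Ptprc, all lower (Ikzf2 -1.80, Ikzf4 -1.68, Tnfrsf9 -1.52 and Tnfrsf18 -1.40). None was called in the other limma fits. Lines called were 71 with a mean of at least 1, 3 with a pseudocount of 0.01, 74 with a pseudocount of 1, 40 with the summed Cd3 denominator, 15710 with Cd4, 19330 with Ptprc, 2 with Cd3e as a covariate, 44 without GSK343 replicates 3 and 5, and 5 to 13168 when single tumours were left out, the highest without vehicle replicate 2. Ptprc measured 3.79 ± 2.28 and 19.0 ± 11.6 FPKM, so ratios to it mostly turned negative.

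The sign changed in these cases (log2 difference). With Ptprc it was -0.33 for Foxp3, -0.67 for Il2ra, -1.17 for Ccr8, -1.40 for Tnfrsf18 and -1.08 for Tnfrsf4. With Cd4 it was -0.34 for Ccr8, -0.57 for Tnfrsf18 and -0.25 for Tnfrsf4. With a pseudocount of 1 it was -0.21 for Ccr8, and with the summed Cd3 denominator -0.034 for Tnfrsf18. With Cd3e as a covariate it was 0.024 for Ikzf2, 0.22 for Ikzf4 and 0.30 for Tnfrsf9. With single tumours left out, Tnfrsf18 ranged from -0.043 to 0.22 and Tnfrsf9 from -0.21 to 0.094; without GSK343 replicates 3 and 5 Tnfrsf9 was 0.064. The cause was not tested. Weak genes are limited by depth, which these values do not carry.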
